A study of Mus musculus with 12 samples.

Results

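The comparison described here set organoids labelled as mouse endometrial epithelium without the estrogen receptor gene Esr1 against wild type organoids, both kept with estrogen. It rests on 6 of the 12 libraries of the series, which were chosen by their labels alone: 3 libraries of Esr1 knockout organoids with estrogen (KO_E) and 3 of wild type organoids with estrogen (WT_E). Bulk RNA was sequenced. The other 6 libraries came from the same genotypes without estrogen (KO_noE and WT_noE, 3 each). They shared the estimate of spread and are compared where the text says so. Organoids are hollow spheres of epithelial cells grown in a gel of basement membrane. These were started from epithelium of digested mouse uteri and used at passage 3. The labels name the genotype only as Esr1 knockout or wild type, and the treatment only as estrogen. They give no strain, animal age for these libraries, deleted exons, Cre driver, kind of estrogen or dose, and they do not say whether a group came from 1 or several animals. Their treatment field adds that organoids of either genotype showed no response to the hormone.

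Esr1 encodes estrogen receptor alpha, a transcription factor of the nuclear receptor family that binds estrogen and then DNA. In the uterus it acts in the lining epithelium and in the stroma beneath it, and stromal signals carry much of the growth response that estrogen causes in the epithelium. Organoids hold epithelium only. The uterus, oviduct, cervix and upper vagina all arise from the Müllerian duct: the uterus keeps a simple columnar lining with glands, the oviduct forms ciliated cells, and the vagina and outer cervix form a stratified squamous epithelium. The comparison asks which genes differed between the Esr1 genotypes while the hormone was present.

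Levels are counts per 1 M (mega) reads in tested genes (CPM), with edgeR's TMM scaling, and 3 values in a row stand for replicates 1, 2 and 3. A gene was called higher or lower in KO_E where the adjusted p of edgeR's quasi-likelihood test was below 0.05, and fold changes are on the log2 scale with their standard error (SE). The 3 WT_E libraries held 96.2 ± 7.08 (SD, n = 3) M counted reads and the 3 KO_E libraries 104.7 ± 3.48 M. Esr1 itself stood at 280.3, 330.3 and 344 CPM in WT_E and at 19.3, 20.3 and 19.5 CPM in KO_E. The knockout libraries thus kept 6.19% of the wild type level, and no KO_E library came near a WT_E library. On the log2 scale Esr1 changed by -4.01 ± 0.126 (SE, edgeR adjusted p = 2.25e-09).

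Most of the measured transcriptome differed between the genotypes. Of 16465 genes tested, edgeR called 11655 (70.8%), with 6043 higher (36.7%) and 5612 lower (34.1%) in KO_E. Counts of the gene lists below are to be read beside these shares. The directions were unequal in size. At least 2-fold apart were 4263 genes called higher (25.9%) against 2096 called lower (12.7%), at least 10-fold 2045 against 485, and at least 100-fold 848 against 126. Genes called higher took up 11.9% to 12.4% of the reads in tested genes in the WT_E libraries and 38.2% to 39.4% in the KO_E libraries. Genes called lower took up 61.7% to 62.9% in WT_E and 31.9% to 33.4% in KO_E. In 12076 genes (73.3%) the 3 KO_E libraries did not overlap the 3 WT_E libraries, with 6258 above (38.0%) and 5818 below (35.3%).

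Directions are relative to the scaling. The median log2 fold change of all tested genes was 0.02. Scaling by library size alone moved it to 0.21 and changed the calls to 7254 higher and 4233 lower, or 63.1% of calls higher in place of 51.8%. The labels do not say whether replicates were separate animals or cultures, so the p-values measure only the spread between these libraries. In bulk RNA, more cells of a type and more RNA per cell cannot be told apart.

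**Figure D1:**
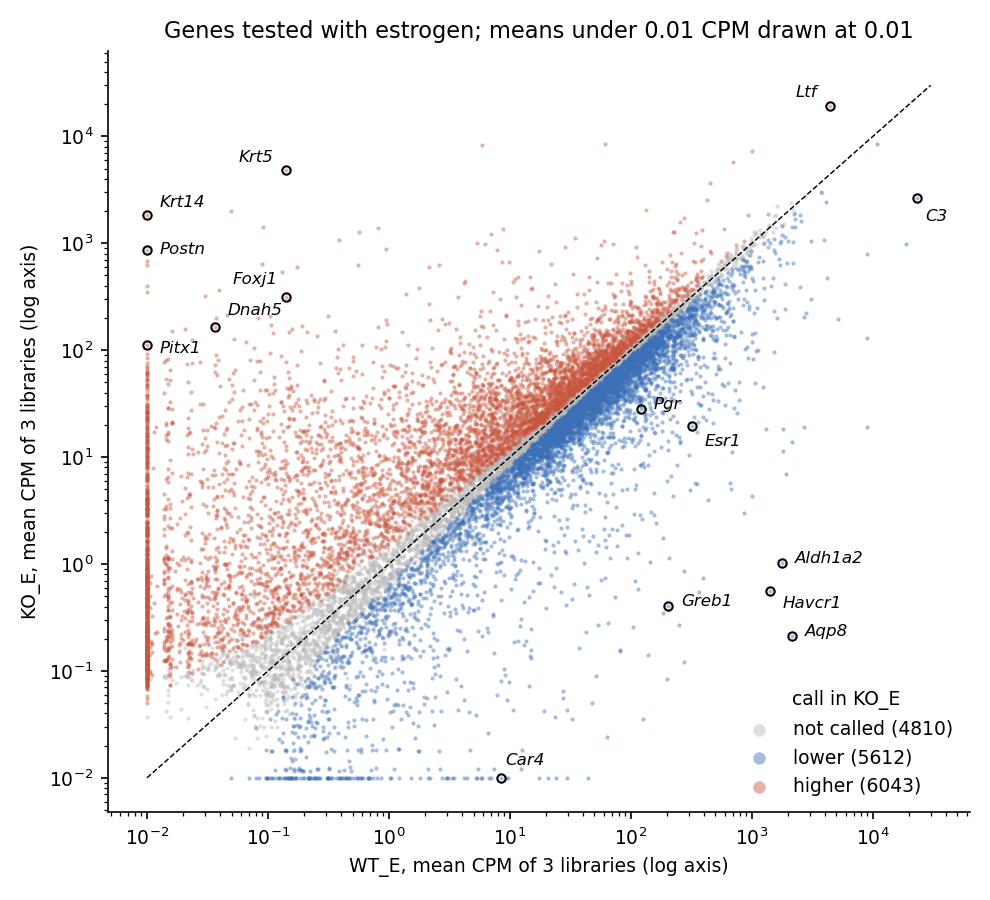
Mean CPM of 3 WT_E libraries (x axis, log) against mean CPM of 3 KO_E libraries (y axis, log) for the 16465 tested genes, coloured by call, with group means under 0.01 CPM drawn at 0.01. Red points (6043 genes) reach far above the dashed line of equal level at low WT_E levels, while blue points (5612 genes) lie mostly close below it, with Aqp8, Aldh1a2 and Havcr1 among those far below.

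The genes with the most reads changed places between the genotypes. The largest falls by level were those of C3, Prap1 and Gpx3. C3, the central complement protein and an estrogen-induced gene of the mouse uterus, stood at 17103, 23876 and 28674 CPM in WT_E and 1913, 3089 and 2874 CPM in KO_E. Prap1, a proline-rich acidic protein secreted by the uterine and intestinal epithelium, stood at 17542, 25396 and 13840.2 against 541, 1369 and 1053 CPM. Gpx3, a secreted glutathione peroxidase, stood at 9057, 6434 and 11502 against 18.4, 24.9 and 14.5 CPM. Each KO_E library lay below each WT_E library for these genes, and the fall was 8.84-fold for C3, 19.2-fold for Prap1 and 467-fold for Gpx3. Spp1, the secreted phosphoprotein osteopontin, fell 68.6-fold, the lysosomal protease gene Ctsb 11.2-fold, tissue factor F3 26.5-fold and the macrophage growth factor gene Csf1 143-fold. The other 5 of the 12 largest falls were Tgm2, P4hb, Sgms2, Gng12 and Ivns1abp, between 3.66-fold for P4hb and 13.1-fold for Ivns1abp. Without KO_E replicate 2, the log2 fold change of Spp1 was -6.71 in place of -6.10.

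The 12 largest rises by level included genes of secreted proteins and of keratins. Ltf, the iron-binding secretory protein lactoferrin, is also in the list of estrogen-regulated genes described below. It stood at 1681, 8061 and 3573 CPM in WT_E and 13639.5, 23497 and 20916 CPM in KO_E. Chil1, a secreted chitinase-like protein, stood at 29.8, 112 and 40.8 against 6785, 9871 and 8775 CPM. Olfm4, a secreted glycoprotein of gut and uterine epithelium, stood at 13.4, 2.44 and 1.78 against 7812, 8573 and 8676 CPM. WT_E replicate 2 was the highest wild type library for Ltf and Chil1, and KO_E replicate 1 the lowest knockout library for all 3 genes, yet no WT_E library reached a KO_E library. The rise was 4.36-fold for Ltf (edgeR adjusted p = 0.00639), 139.5-fold for Chil1 (edgeR adjusted p = 7.76e-06) and 1421-fold for Olfm4 (edgeR adjusted p = 7.35e-06). Complement factor B (Cfb) rose 7.24-fold, the glutathione transferase gene Gsto1 8.22-fold, ceruloplasmin (Cp) 8.04-fold, the immunoglobulin transporter gene Pigr 5.97-fold and the desmosome-associated gene Perp 6.23-fold. The other 4 of the 12, Krt5, Krt14, Krt16 and Krt6b, encode keratins of stratified epithelium and are described below. Without WT_E replicate 2, the log2 fold changes were 2.88 in place of 2.12 for Ltf, 7.91 in place of 7.12 for Chil1 and 3.27 in place of 2.58 for Pigr, and without WT_E replicate 1 that of Olfm4 was 11.95 in place of 10.47.

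A smaller set of well-expressed genes stayed close. Of 1547 genes at 100 CPM or more in both groups, 570 were not called, and for 515 of those the 95% interval of the fold change lay within 1.5-fold in either direction. The interval closest to 0 was that of Ppp6r3, a regulatory subunit of protein phosphatase 6, with 114, 116 and 118 CPM in WT_E and 115, 112 and 117 CPM in KO_E and a log2 fold change of -0.15 to 0.11 as its 95% interval. The splicing factor gene Sf3b2 stood at 254, 271 and 271 against 271, 260.1 and 267 CPM, and the small GTPase gene Nras at 137, 132 and 128 against 132, 131 and 133 CPM. The libraries of both groups overlapped for these genes. Cdh1 (E-cadherin) and Krt8, which mark epithelium, were not called either, with log2 fold changes of -0.03 ± 0.103 and 0.30 ± 0.146 (SE). Under library size alone Krt8 and these 3 genes were called higher, a setting in which the median of all genes moved as given above, and Krt8 was also called higher by DESeq2 and without KO_E replicate 1 (range of adjusted p 0.0141 to 0.339).

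Genes known to respond to estrogen in the uterine epithelium did not move together. Of 39 tested members of that list, 15 were higher in KO_E, 17 lower and 7 not called, with a median log2 fold change of -0.24 against 0.02 over all tested genes. The shares higher and lower over all tested genes were 36.7% and 34.1%, against 38.5% and 43.6% of the list. At least 2-fold apart were 14 members called higher and 14 called lower, each 35.9% of the list, against 25.9% and 12.7% of all tested genes. The palindromic estrogen response element (GGTCA, any 3 bases, TGACC) was in 0 of the 35 promoter windows matched to this list in the RefSeq table of build GRCm38.p6, from 250 bases before to 50 after the start, and in 20 of the table's 27025 genes (0.074%). At so low a share, 35 windows are too few to tell the list from all genes. A single arm with 1 more base, AGGTCA on either strand, was in 8 of the 35 (22.9%), against 18.1% of the table's genes.

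The falls included members of the list whose levels in KO_E were almost nothing. Greb1, a cofactor of the estrogen receptor and one of its direct targets, stood at 156, 192 and 264 CPM in WT_E and 0.404, 0.505 and 0.304 CPM in KO_E. Aqp8, a water channel, stood at 1936, 2373 and 2135 against 0.258, 0.307 and 0.076 CPM. Klk1, a kallikrein protease, stood at 160.0, 115 and 140.3 against 0.12, 0.135 and 0.171 CPM. For each of these genes every KO_E library lay under 1 CPM and every WT_E library above 100 CPM. The fold was 505 for Greb1 (edgeR adjusted p = 1.96e-08), 10059.7 for Aqp8 (edgeR adjusted p = 6.68e-09) and 973 for Klk1 (edgeR adjusted p = 7.49e-10). Without estrogen, Greb1 stood at 155, 215 and 106 CPM in WT_noE and Aqp8 at 2597, 2230 and 2157 CPM, and both were called lower in KO_noE. These falls are between genotypes, and a response of wild type to estrogen was not tested here.

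Of the peptidylarginine deiminases, enzymes that turn arginine in proteins into citrulline and are estrogen-induced in the uterus, 3 are described here. Padi2 stood at 1624, 1891 and 2262 CPM in WT_E and 4.88, 8.08 and 8.09 CPM in KO_E, Padi1 at 1001, 1011 and 1351 against 85.4, 116 and 103 CPM, and Padi4 at 645, 866 and 829 against 44.5, 56 and 49.4 CPM. No library of one group reached the other. The falls were 274-fold for Padi2, 11-fold for Padi1 and 15.6-fold for Padi4. The gap junction gene Gjb2 fell 8.36-fold, the leucine-rich glycoprotein gene Lrg1 3.72-fold, the immediate early gene Fos 3.5-fold, the progesterone receptor gene Pgr 4.3-fold and Xbp1, a transcription factor of secretory cells, 2.31-fold. Aqp5, another water channel, and Sprr2f, a small proline-rich protein that estrogen induces in the uterus, were called lower although their libraries overlapped. Sprr2f stood at 3326, 1893 and 2388 CPM in WT_E and 1210.2, 1639 and 2007 CPM in KO_E (edgeR adjusted p = 0.0343), and its call was lost under 6 of 13 alternatives, library size alone among them (range of adjusted p 0.0146 to 0.157). That of Aqp5 was lost under 5, among them without either of WT_E replicates 2 and 3 or of KO_E replicates 1 and 2 (range of adjusted p 8.15e-04 to 0.0907).

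Other members of the same Sprr2 family went the opposite way. Sprr2d stood at 7.66, 8.87 and 4.51 CPM in WT_E and 1379, 1009 and 1266 CPM in KO_E, Sprr2e at 0.514, 0.266 and 0.169 against 245, 161 and 220.3 CPM, and Sprr2b at 0.596, 0.847 and 0.913 against 139, 103 and 79.2 CPM. The groups did not overlap, with rises of 174-fold, 659-fold and 136-fold. Sprr2 genes are near-identical copies in a cluster, so the split of reads among them is uncertain. Among members of the estrogen-regulated list called higher without overlap, Ltf, given above, rose by the most CPM. Muc1, a membrane mucin of the luminal surface, stood at 74, 80.4 and 68.7 CPM in WT_E and 313, 355 and 305 CPM in KO_E and rose 4.36-fold (edgeR adjusted p = 1.24e-08). Muc4, a further membrane mucin, rose 3.04-fold, and Clca1, a secreted protein of mucous cells, rose 36.7-fold. Growth factor members were low but higher in KO_E: Areg (amphiregulin) stood at 0.298, 0.0726 and 0.0451 against 7.6, 3.04 and 3.79 CPM, and Fgf9 at 3.6, 3.96 and 3.3 against 6.9, 9.89 and 8.78 CPM. Without WT_E replicate 1, the log2 fold change of Areg was 6.33 in place of 5.07.

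Several members did not pass. Lcn2, an iron-binding secreted protein, stood at 3440.0, 4131 and 3846 CPM in WT_E and 2107, 3636 and 3116 CPM in KO_E. Lif, the cytokine that opens the uterus to implantation, stood at 40.5, 37.9 and 33.6 against 48.4, 37 and 45.7 CPM, and Ccnd1, a cyclin of the early cell cycle, at 472, 469.7 and 473 against 515, 377 and 585 CPM. The groups overlapped for all 3, and Lif was called higher under library size alone (range of adjusted p 0.0237 to 0.439). The 95% intervals of the log2 fold change ran from -0.86 to 0.13 for Lcn2, -0.10 to 0.55 for Lif and -0.32 to 0.45 for Ccnd1. Ctsd, Ccn1, Cdkn1a and Igf1 were not called either. Ccn1 was called higher without WT_E replicate 1, with a log2 fold change of 1.34 in place of 0.60 (range of adjusted p 0.0285 to 0.684). Cdkn1a was called higher under library size alone and without KO_E replicate 1 (range of adjusted p 0.0169 to 0.820), and Ctsd lower without KO_E replicate 3 or WT_E replicate 2 (range of adjusted p 0.0459 to 0.646). Ihh, at 0.0617, 0.0968 and 0.0676 CPM in WT_E and 0.0688, 0.0721 and 0.057 CPM in KO_E, had too few reads to be tested.

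**Figure D2:**
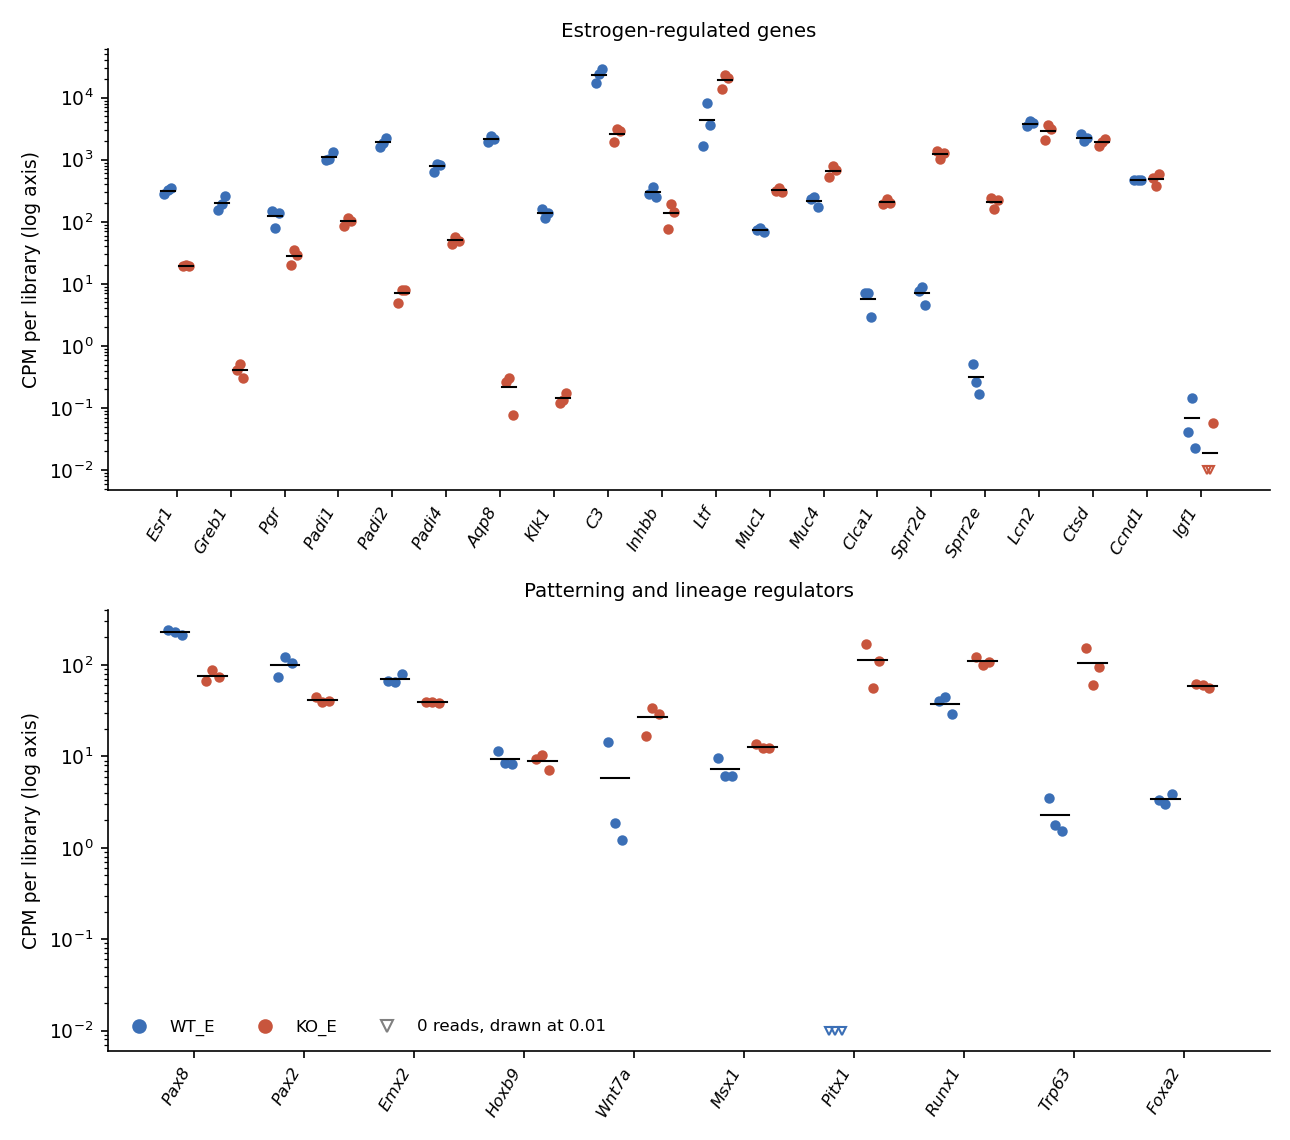
CPM of each of the 6 libraries (log axis) for 20 estrogen-regulated genes (upper panel) and 10 patterning and lineage regulators (lower panel), WT_E in blue and KO_E in red, black bars at the means of 3, and open triangles at 0.01 for libraries with 0 reads. Greb1, Padi2, Aqp8 and Klk1 sit far lower in KO_E, Clca1, Sprr2d and Sprr2e far higher, and Lcn2, Ctsd and Ccnd1 overlap.

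Steroid receptors and their cofactors were lower in KO_E more often than higher. Of 29 tested, 7 were higher, 14 lower and 8 not called, with a median log2 fold change of -0.31. Of the members, 24.1% were higher and 48.3% lower, against 36.7% and 34.1% over all tested genes. The glucocorticoid receptor gene Nr3c1 stood at 76.2, 83.3 and 69.6 CPM in WT_E and 38, 38.4 and 48.9 CPM in KO_E, and the mineralocorticoid receptor gene Nr3c2 at 5.04, 4.72 and 4.68 against 3.63, 6.86 and 5.95 CPM. Nr3c1 was lower in every KO_E library than in any WT_E library, while Nr3c2 overlapped and was not called, except higher without KO_E replicate 1 (range of adjusted p 0.0496 to 0.979). Esr2, which encodes estrogen receptor beta, was near 0 in all 6 libraries, with 0.086, 0.144 and 0.114 CPM in KO_E. It had 2 reads over WT_E, and the KO_E to WT_E ratio had a 95% counting interval of 3.97 to 131. The membrane estrogen receptor gene Gper1 was low and rose 6.37-fold, to 1.2, 2.32 and 2.13 CPM.

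Among cofactors, the corepressor gene Ncor1 was not called (0.15 ± 0.0923 on the log2 scale, SE), but was called higher under library size alone and without KO_E replicate 1 (range of adjusted p 0.00494 to 0.376). The coactivator genes Ncoa3 and Ncoa1 rose 1.55-fold and 1.24-fold, Ncoa2 was not called, and the corepressor gene Nrip1 fell 1.89-fold. Foxa1, a pioneer factor of estrogen receptor binding in breast cells, and Gata2 were not called. Without WT_E replicate 3, Ncoa2 and Foxa1 were called lower, Foxa1 with a log2 fold change of -1.68 in place of -1.27, and without WT_E replicate 2 Gata2 was called lower (ranges of adjusted p 0.0274 to 0.956, 0.0222 to 0.769 and 0.0494 to 0.700). By contrast, Gata3 rose from 0.494, 0.0484 and 0.0451 to 5.48, 3.14 and 3.9 CPM. Over all tested genes 36.7% were higher and 34.1% lower. In the list of steroid and drug metabolism, 14 of 33 were higher (42.4%) and 15 lower (45.5%). Its large falls were Akr1c18, which inactivates progesterone (1494, 1869.9 and 2049 against 5.02, 20.1 and 8.76 CPM), and Hsd11b1, which regenerates active glucocorticoid (1128, 750.1 and 699.7 against 2.74, 4.02 and 2.16 CPM). Srd5a1, the steroid 5-alpha-reductase, fell 7.04-fold. Cyp2f2, a cytochrome of airway and genital epithelium, rose from 0.0206, 0 and 0.0902 to 81.5, 85.5 and 102 CPM. Single libraries moved 3 of these log2 fold changes: Gata3 from 4.37 to 6.44 without WT_E replicate 1, Akr1c18 from -7.32 to -8.03 without KO_E replicate 2, and Cyp2f2 from 11.18 to 12.82 without WT_E replicate 3.

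Patterning genes of the female tract also split. Of 27 tested, 12 were higher, 10 lower and 5 not called, and the median log2 fold change was -0.11. The shares, 44.4% higher and 37% lower, lay near the 36.7% and 34.1% over all tested genes. Those lower included paired-box and homeobox factors of the early duct. Pax8 stood at 242, 228 and 212 CPM in WT_E and 66.3, 88.6 and 74 CPM in KO_E, and Pax2 at 73.3, 121 and 105 against 45.1, 39.7 and 40.5 CPM. Emx2 fell 1.8-fold, Sall1 1.43-fold and Wnt5a 2.25-fold. None of these genes overlapped between the groups, although the lowest WT_E and the highest KO_E library nearly met for Sall1, whose call was lost under library size alone (edgeR adjusted p = 0.0513), and all kept a measurable level in KO_E.

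Pitx1 and Runx1 were among those higher. Pitx1, a homeobox factor of hindlimb and oral epithelium, had 0 reads in every WT_E library and 171, 56.7 and 110.3 CPM in KO_E, which was at least 10099.5-fold higher against a floor of 3 reads over WT_E. Runx1, which acts in early vaginal fate, stood at 40.1, 44.2 and 29.4 against 123, 99 and 109 CPM. KO_E replicate 1 was the highest library for Pitx1 and Runx1 and KO_E replicate 2 the lowest. Meis1 rose 3.33-fold, Meis2 2.3-fold, Sox17 3.04-fold, Nr2f2 2.35-fold and Wnt4 7.35-fold. Wnt7a, the ligand that the luminal epithelium uses to pattern the uterus, stood at 14.5, 1.89 and 1.22 CPM in WT_E and 16.8, 34.1 and 29.3 CPM in KO_E (edgeR adjusted p = 0.0394), where WT_E replicate 1 came close to KO_E replicate 1. Without WT_E replicate 1 its log2 fold change was 4.11 in place of 2.18, and the call was lost without any other of the 6 libraries but KO_E replicate 1 (range of adjusted p over all alternatives 4.84e-04 to 0.115).

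Hox genes of the B cluster were close in level between the genotypes. Hoxb6 stood at 106, 94.7 and 103 CPM in WT_E and 79.3, 94.2 and 86.2 CPM in KO_E, Hoxb7 at 52.8, 52.3 and 60.5 against 46.4, 52.5 and 52.3 CPM, and Hoxb9 at 11.5, 8.44 and 8.23 against 9.43, 10.5 and 7.03 CPM. Of Hoxb5 to Hoxb9, only Hoxb6 was called, with a log2 fold change of -0.22 ± 0.0893 (SE; edgeR adjusted p = 0.0414), and that call was lost under 11 of 13 alternatives (range of adjusted p 0.0204 to 0.715). Hoxb5 was called lower under 2 alternatives, without KO_E replicate 2 and with the replicate block (range of adjusted p 0.0199 to 0.891). Hoxd8, at 0.103, 0 and 0.0451 CPM in WT_E and 0 reads in KO_E, was called lower, but not without WT_E replicate 1. The defining uterine members Hoxa10 and Hoxa11 had 2 reads each over the 6 libraries, and Hoxa13, a cervical and vaginal member, had 0. These markers of the labelled tissue were thus at or near 0 in both groups. Hoxa10 and Hoxa11 are also in the set of stromal fibroblast markers. Of 21 endometrial epithelium markers, 17 were tested, 7 were higher and 7 lower, and their summed level ran from 5172 to 5930 CPM in WT_E and from 4414 to 5309 CPM in KO_E.

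Most tested genes of squamous differentiation and of the basal layer of stratified epithelium were higher in KO_E, while genes of simple epithelium moved both ways. Of 40 simple epithelium genes, 15 were higher (37.5%) and 11 lower (27.5%), near the 36.7% and 34.1% over all tested genes. Their median log2 fold change was 0.10. Krt18, a keratin of simple epithelium, stood at 998, 991 and 960.0 CPM in WT_E and 470.2, 658 and 603 CPM in KO_E, and Krt7 and Epcam fell 1.67-fold and 1.54-fold. The protease inhibitor gene Spint1 fell 3.23-fold. Krt19 rose 1.79-fold. In the simple list 7 members were at least 2-fold higher (17.5%) and 2 at least 2-fold lower (5%). Of all tested genes 25.9% and 12.7% were.

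Basal cell genes, those of the cells that sit on the basement membrane of a stratified epithelium, rose in 23 of 30 cases and fell in 4, with a median log2 fold change of 6.45. Krt5, the keratin of basal cells, stood at 0.0617, 0.157 and 0.203 CPM in WT_E and 6715, 2754 and 5005 CPM in KO_E. Its partner Krt14 had 0 reads in WT_E and stood at 2682, 1185 and 1652 CPM in KO_E, at least 164729-fold higher. Col17a1, a collagen of the hemidesmosome, stood at 0.195, 0.0484 and 0.0225 CPM in WT_E and 944, 372 and 590.3 CPM in KO_E. Trp63, the master regulator of stratified epithelium, stood at 3.49, 1.77 and 1.53 against 155, 61.2 and 95.3 CPM. In all 4 genes KO_E replicate 1 was highest and KO_E replicate 2 lowest. Among the 4 members that fell was the integrin gene Itga6 (1466, 1220.0 and 1101 against 444, 325 and 366 CPM). Lama3 and Lamb3, which encode laminin chains and were picked after their values were seen, also fell. Under library size alone Lama3 and Lamb3 were no longer called (range of adjusted p over all alternatives 0.00999 to 0.138 and 0.00305 to 0.0506), and Lama3 was not called without WT_E replicate 1, KO_E replicate 1 or KO_E replicate 3 either, nor with the 6 libraries alone or the replicate block. Without WT_E replicate 1 the log2 fold change of Col17a1 was 14.09 in place of 12.73.

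Squamous differentiation genes, those of the cells above the basal layer, rose almost without exception: 49 of 50 tested were called higher, none lower, 47 by at least 2-fold, with a median log2 fold change of 6.41. In 48 of 50 every KO_E library lay above every WT_E library, against 38.0% of all tested genes. Krt16, a keratin of activated squamous cells, stood at 0.103, 0.0242 and 0.0225 CPM in WT_E and 3334, 1143 and 1585 CPM in KO_E. Krt6b stood at 141, 70.9 and 192 against 3611, 1059.7 and 1531 CPM, so that it was already present in wild type. Krt6b and Krt6a, and Krt14 and Krt16, are similar copies whose reads may be split uncertainly. Krt13, the keratin of wet stratified epithelium such as that of the vagina, stood at 0.0823, 0.121 and 0.0676 against 2283, 622 and 1359 CPM. Krt10 and Lor, which mark the keratinised upper layers, rose 26.5-fold and 26.8-fold, and Sprr3 from 0, 0.0242 and 0 CPM to 78.4, 26 and 53.8 CPM. Krt4, the partner of Krt13, was not called, at 4.98, 14.6 and 13.1 CPM in WT_E and 6.73, 3.67 and 16.3 CPM in KO_E.

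The 3 knockout libraries were not alike in this program. The summed level of the squamous list was 1650.1, 1437 and 1493 CPM in the WT_E libraries and 29102, 12168 and 17849 CPM in the KO_E libraries. For 47 of the 50 genes KO_E replicate 1 was the highest knockout library, and for 44 KO_E replicate 2 was the lowest. The order was reversed for cilia genes, as given below. Without KO_E replicate 1, edgeR still called 47 of them higher. The log2 fold change of Krt10 was then 3.66 in place of 4.73 and that of Krt6b 3.27 in place of 3.94, while without WT_E replicate 1 that of Krt16 was 16.32 in place of 15.21.

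Factors that direct epithelial lineages rose in 31 of 49 cases and fell in 11. The epithelial ETS factor gene Ehf rose 2.76-fold. Grhl2, a regulator of simple epithelial junctions, fell 1.88-fold. Cervical and vaginal markers moved with these genes: 17 of 18 tested were higher and none lower, and their summed level was 84.4 to 195 CPM in WT_E and 6408 to 16046 CPM in KO_E. That set shares Krt5, Krt14 and other members with the basal and squamous lists, Isl1 in it had 0 reads, and whether such cells were present was not tested.

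**Figure D3:**
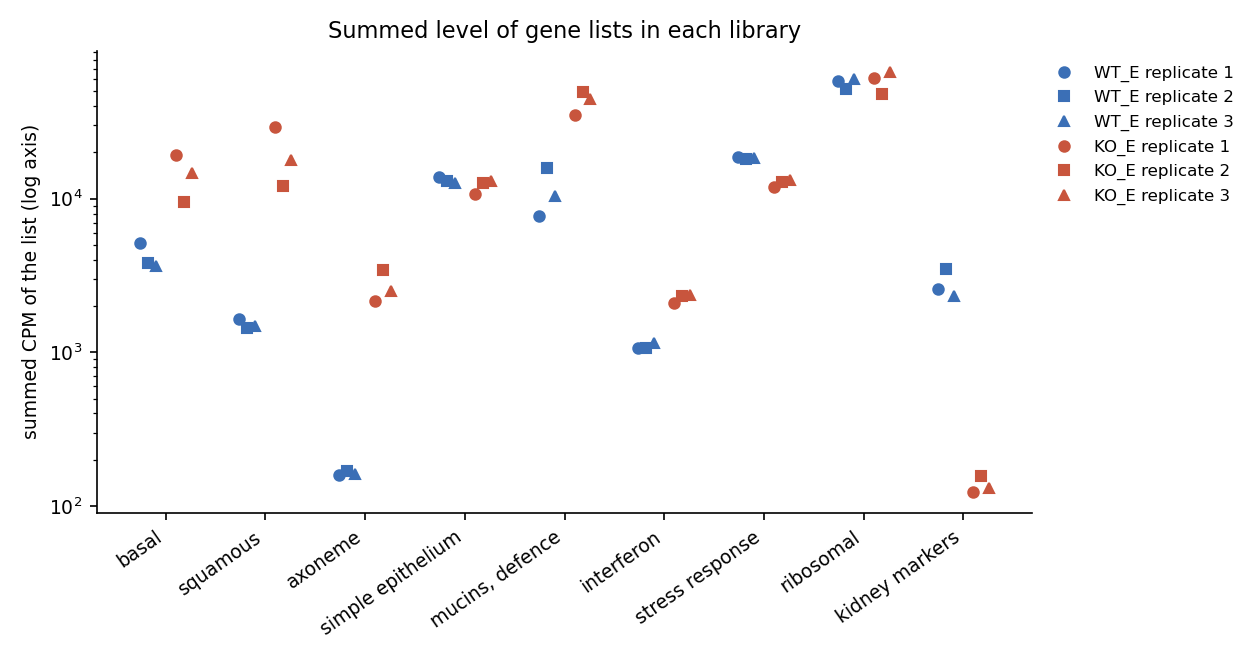
Summed CPM (log axis) of the members of 9 gene lists in each of the 6 libraries, WT_E in blue and KO_E in red, with circles, squares and triangles for replicates 1, 2 and 3. The basal, squamous and axoneme lists lie higher in every KO_E library, with replicate 1 (circle) highest for squamous genes and replicate 2 (square) highest for axoneme genes, and the ribosomal list overlaps.

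Ciliated cell genes appeared in the knockout as well. Motile cilia are built on an axoneme of microtubules with dynein motors. Several of its genes carry, near their start, the sequence GTTGCC, which is part of the X-box that RFX factors bind. Of 65 tested axoneme and dynein arm genes, 63 were called higher, none lower, and 62 by at least 2-fold, with a median log2 fold change of 6.80. All 65 had every KO_E library above every WT_E library, against 38.0% of all tested genes. For promoters, RefSeq windows of build GRCm38.p6, from 250 bases before to 50 bases after a start, were searched on both strands. GTTGCC stood in the windows of 26 of the 55 matched axoneme genes (47.3%) and of 7 of 17 matched regulators of ciliated cell fate (41.2%), against 3821 of all 27025 genes in the table (14.1%).

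The 160 bases before the start of 5 such genes are given below, with each GTTGCC, or its reverse complement GGCAAC, in capitals. They were chosen after their values and matches were seen, to show where the motif lies in genes that went from almost no reads to a clear level. They are Lrrc23 (chr6:124779728-124779887, minus strand), a part of the radial spoke, Ccdc153 (chr9:44240517-44240676, plus strand), Tekt1 (chr11:72361883-72362042, minus strand), a tektin inside the microtubules, Dynlrb2 (chr8:116504855-116505014, plus strand), a dynein light chain, and Deup1 (chr9:15627847-15628006, minus strand), which multiplies centrioles.
Lrrc23: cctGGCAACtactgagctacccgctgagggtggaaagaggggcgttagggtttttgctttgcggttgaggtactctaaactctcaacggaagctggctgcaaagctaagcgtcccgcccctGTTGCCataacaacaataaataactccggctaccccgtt
Ccdc153: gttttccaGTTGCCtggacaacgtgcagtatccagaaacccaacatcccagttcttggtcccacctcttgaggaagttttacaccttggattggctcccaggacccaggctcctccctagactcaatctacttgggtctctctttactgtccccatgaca
Tekt1: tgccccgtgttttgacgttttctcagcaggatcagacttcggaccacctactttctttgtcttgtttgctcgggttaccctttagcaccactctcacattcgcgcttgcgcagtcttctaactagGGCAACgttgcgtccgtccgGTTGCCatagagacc
Dynlrb2: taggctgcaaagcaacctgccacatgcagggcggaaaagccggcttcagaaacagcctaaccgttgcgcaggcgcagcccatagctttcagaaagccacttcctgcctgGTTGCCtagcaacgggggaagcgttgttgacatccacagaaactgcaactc
Deup1: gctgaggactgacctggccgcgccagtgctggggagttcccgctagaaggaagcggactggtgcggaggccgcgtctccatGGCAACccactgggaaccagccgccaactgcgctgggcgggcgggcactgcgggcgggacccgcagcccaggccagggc
The motif began 39 and 157 bases before the start in Lrrc23, 152 in Ccdc153, 35 and 15 in Tekt1, 51 in Dynlrb2 and 79 in Deup1. A match is a description of the letters and not a site shown to be bound.

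Lrrc23 had 0 reads in WT_E and 72.1, 87 and 69.7 CPM in KO_E, at least 6831-fold higher. Ccdc153 also had 0 reads in WT_E and 63.4, 112 and 80.1 CPM in KO_E, at least 7619-fold higher. Dynlrb2 stood at 0, 0.0484 and 0.0225 against 57.1, 95.2 and 75.4 CPM. In each of these 3 genes KO_E replicate 2 was the highest library. Dnah5, a heavy chain of the outer dynein arm, stood at 0.0411, 0.0242 and 0.0451 CPM in WT_E and 117, 225 and 152 CPM in KO_E, and Tppp3, a tubulin-binding protein of ciliated cells, at 0.411, 0.581 and 0.80 against 90.9, 144 and 103 CPM. Over the axoneme list, KO_E replicate 2 was highest for 63 of 65 genes and KO_E replicate 1 lowest for 53. The summed level was 159.5, 169 and 162 CPM in WT_E and 2148, 3424 and 2504 CPM in KO_E, so that the wild type libraries were close to each other and the knockout libraries spread. The log2 fold change of Dynlrb2 was 11.64, but 11.03 without WT_E replicate 1 and 12.62 without WT_E replicate 2.

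Most regulators of ciliated cell fate rose too. Of 20, 16 were higher and 3 lower. Foxj1, the master factor of motile cilia, stood at 0.165, 0.194 and 0.0676 CPM in WT_E and 279.5, 385 and 283 CPM in KO_E, a 2225-fold rise (edgeR adjusted p = 2.25e-09). Ccno, a cyclin-like protein that centriole amplification needs, stood at 0.288, 0.0726 and 0.158 against 76.6, 73.7 and 66.2 CPM, with a log2 fold change of 8.66 that was 9.26 without WT_E replicate 1. The falls were E2f4 and E2f5, whose proteins join the multicilin complex, by 2.09-fold and 1.88-fold, and Tfdp1, their dimer partner, which was picked after its value was seen. Markers of the oviduct, the ciliated part of the tract, were divided: 8 of 12 tested were higher and 4 lower, with summed levels of 1423 to 1582 CPM in WT_E and 1300.0 to 1735 CPM in KO_E. The set shares Foxj1, Ccdc153 and Dynlrb2 with the cilia lists, and its part in the result was not tested. Ovgp1, the oviduct-specific glycoprotein, stood at 16.4, 8.27 and 9.4 CPM in WT_E and 4.95, 5.96 and 5.56 CPM in KO_E.

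Gland and luminal genes of the uterus were each divided. Of 15 tested gland genes, 6 were higher (40%) and 4 lower (26.7%), near the 36.7% and 34.1% over all tested genes. Foxa2, the factor that gland formation needs, stood at 3.31, 3.0 and 3.87 CPM in WT_E and 61.6, 60.6 and 56.6 CPM in KO_E, and the chemokine Cxcl15 at 0.0308, 0.0484 and 0.0451 against 23.4, 25.5 and 24.1 CPM. The gland products Spp1 and Gpx3 fell, as given above, and the summed level of the list dropped from 20432, 18972 and 20704 CPM to 1688, 2354 and 2055 CPM. Of 21 luminal genes, 14 were higher (66.7%) and 4 lower (19%). Napsa, an aspartic protease, fell 15.7-fold.

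**Figure D4:**
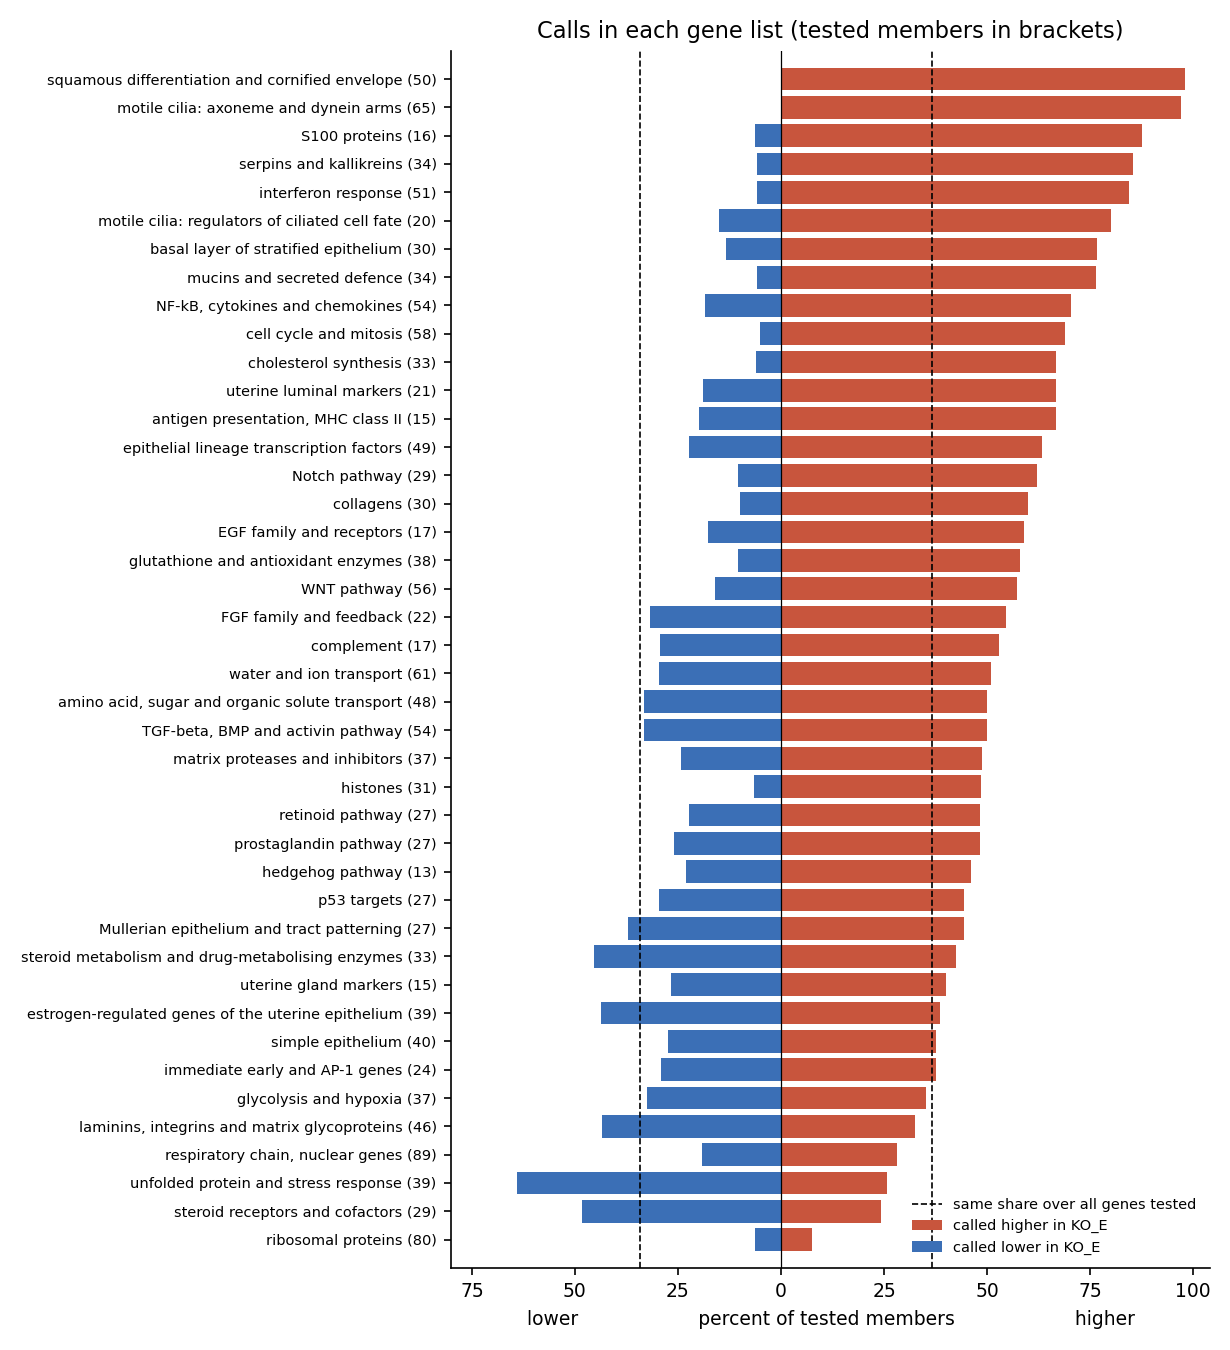
Percent of the tested members of each gene list called higher (red, to the right) or lower (blue, to the left) in KO_E, with the number tested in brackets and dashed lines at the shares over all tested genes, 36.7% and 34.1%. Squamous and axoneme genes reach furthest to the right, and genes of the unfolded protein response, with 25 of 39 lower, furthest to the left.

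Signalling genes moved in both directions. In the WNT pathway, 32 of 56 genes were higher and 9 lower, with a median log2 fold change of 1.28. Wnt11 stood at 0.0617, 0.0484 and 0 CPM in WT_E and 53.1, 84.2 and 79.4 CPM in KO_E, with a log2 fold change of 10.87 that was 11.51 without WT_E replicate 1. Wnt7b rose 2.37-fold. Ctnnb1, which encodes beta-catenin, the transducer of the pathway, fell 1.89-fold, and the receptor gene Tnfrsf19 28.6-fold. In the Notch pathway, 18 of 29 genes were higher and 3 lower. The receptor gene Notch1 rose 11.2-fold and the ligand gene Jag2 30-fold, from 4.04, 2.28 and 3.23 to 135, 56 and 96.2 CPM, whereas the ligand gene Jag1 fell 2.09-fold and the inhibitor gene Numb 2.04-fold.

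Retinoid enzyme genes moved both ways. Aldh1a2, which makes retinoic acid, stood at 1749, 2129.7 and 1479 CPM in WT_E and 1.01, 1.33 and 0.684 CPM in KO_E. Its paralog Aldh1a3 stood at 1.01, 0.436 and 0.0676 against 111, 59 and 66.1 CPM, and the retinol esterifying enzyme gene Lrat at 432, 315 and 442 against 0.688, 1.12 and 0.399 CPM. The groups overlapped for none of the 3, and the sums over the list fell from 3359, 3769 and 3147 CPM to 925, 803 and 839 CPM although 13 of 27 genes were higher and 6 lower. The receptor gene Rxra rose 2.12-fold. Without WT_E replicate 1 the log2 fold change of Aldh1a3 was 8.31 in place of 7.26.

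Receptors for fibroblast growth factor went opposite ways. Fgfr2, the receptor of uterine epithelium for stromal ligands, stood at 384, 367 and 333 CPM in WT_E and 38, 26.1 and 32.6 CPM in KO_E, and Fgfr3 at 3.68, 3.44 and 6.94 against 136, 48.1 and 99.7 CPM. Fgfbp1, a carrier that frees these ligands from matrix, rose 32.8-fold, and the decoy receptor gene Fgfrl1 fell 4.18-fold. In the FGF list 12 of 22 genes were higher and 7 lower, and in the EGF list 10 of 17 and 3. The receptor gene Erbb4 fell 13.6-fold and the feedback inhibitor gene Errfi1 3.17-fold, while the ligand gene Hbegf rose 3.97-fold and Lrig1, a brake on EGF receptors, 2.91-fold. In the TGF-beta, BMP and activin list, 27 of 54 were higher (50%) and 18 lower (33.3%), against 36.7% and 34.1% of all tested genes. The ligand gene Tgfb2 stood at 1195, 1218 and 778 CPM in WT_E and 37.3, 64.4 and 45.3 CPM in KO_E, Inhbb, an activin subunit gene, fell 2.17-fold, and Ltbp2, a matrix protein of the latent TGF-beta family, rose 87.5-fold.

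Cell cycle genes were higher in 40 of 58 cases and lower in 3, with a median log2 fold change of 1.21. Top2a, the topoisomerase of dividing cells, stood at 35.1, 20.5 and 20.3 CPM in WT_E and 203, 164 and 179 CPM in KO_E, and the cyclin gene Ccnd2 at 1.86, 3.5 and 6.2 against 175, 82.8 and 144 CPM. Of the 3 that fell, Rrm2, a subunit of the enzyme that makes DNA precursors, fell 4.78-fold, the centromere histone gene Cenpa 2.79-fold, and the third was Mcm2, a part of the replication helicase, which was picked after its value was seen. KO_E replicate 1, the library with the highest squamous genes, was also the highest for 50 of the 58.

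Innate defence genes rose broadly. Of 51 interferon response genes, 43 were higher and 3 lower, with a median log2 fold change of 1.88 and 35 at least 2-fold higher. Samd9l, an antiviral factor, stood at 56.4, 52.8 and 69 CPM in WT_E and 215, 194 and 246 CPM in KO_E, and B2m, the shared chain of MHC class I, at 214, 231 and 255 against 488, 664 and 670.1 CPM. Against this, tetherin (Bst2) fell 4.67-fold and the GTPase gene Irgm1 2.26-fold. The summed list was 1062, 1074 and 1147 CPM in WT_E and 2103, 2325 and 2364 CPM in KO_E, with no knockout library standing apart. In the MHC class II list 10 of 15 were higher and 3 lower, and the invariant chain gene Cd74 rose from 0.0411, 0.0726 and 0.0225 to 17.5, 18.6 and 19.6 CPM.

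Of 54 NF-kB, cytokine and chemokine genes, 38 were higher and 10 lower. Tnfaip2, a target of tumour necrosis factor, stood at 54, 77.4 and 49.4 CPM in WT_E and 1082, 1012 and 1033 CPM in KO_E, and Cxcl17, a mucosal chemokine, rose 41.4-fold. Csf1 stood at 2851, 2691 and 2596 against 18.4, 20.4 and 18.1 CPM, and the cytokine gene Il1a fell 6.11-fold. In the complement list 9 of 17 were higher and 5 lower. The inhibitor gene Serping1 stood at 3.37, 27.9 and 12.8 CPM in WT_E and 372, 563 and 531 CPM in KO_E, while C3 fell. Summed complement reads fell from 20434, 29316 and 33269 CPM to 9201, 13963 and 13437 CPM. The sum was mostly C3 in WT_E and mostly Cfb in KO_E, where Cfb stood at 5603, 8058 and 8122 CPM. Without WT_E replicate 2 the log2 fold change of Serping1 was 5.92 in place of 5.06.

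Genes of secreted and barrier proteins rose too. Of 34 mucins and secreted defence genes, 26 were higher and 2 lower, and the sum went from 7775, 15895 and 10344 CPM to 34868, 49299 and 44887 CPM. Unlike the squamous list, this sum was lowest in KO_E replicate 1. The falls were Muc20, a membrane mucin (4.05-fold), and the chitinase-like gene Chil4 (23-fold). Of 34 serpins and kallikreins, 29 were higher and 2 lower, with a median log2 fold change of 4.80. Serpinb5 (maspin), a serpin of basal and squamous cells, rose 11.7-fold and Serpinb11 3.92-fold. The kallikreins that fell were Klk1 and Klk15. Of 16 S100 calcium-binding genes, 14 were higher and 1 lower. S100a14 stood at 16.9, 4.74 and 1.93 CPM in WT_E and 812, 666 and 1106 CPM in KO_E, and the member that fell was S100g, the calcium carrier calbindin-D9k, which estrogen induces in the uterus, at 309.7, 243 and 147 against 18.2, 76 and 42.9 CPM. Without WT_E replicate 1 the log2 fold change of S100a14 was 8.01 in place of 6.77 and that of Chil4 -3.62 in place of -4.52, which without KO_E replicate 2 was -5.55.

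Transport genes moved both ways. In the water and ion list 31 of 61 were higher and 18 lower. The water channel gene Aqp4 stood at 0.411, 7.19 and 3.49 CPM in WT_E and 230.4, 361 and 353 CPM in KO_E, opposite to Aqp8, and its log2 fold change of 6.42 was 7.34 without WT_E replicate 2. The sodium pump subunit gene Atp1b1 rose 5.41-fold and the potassium channel gene Kcnk1 fell 5.34-fold. The inositol transporter gene Slc5a3 fell 27.4-fold, the metal transporter gene Slc39a8 fell 3.16-fold, and the zinc transporter gene Slc39a4 rose 5.57-fold.

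The unfolded protein and stress response list was mostly lower: 25 of 39 genes fell and 10 rose, with a median log2 fold change of -0.56. Calr (calreticulin), a chaperone of the endoplasmic reticulum, stood at 2352, 2031 and 2143 CPM in WT_E and 956, 1067 and 1087 CPM in KO_E, and Hspa5 (BiP) at 1861, 1573 and 1737 against 892, 1012 and 1095 CPM. P4hb, a protein disulfide isomerase, fell 3.66-fold. Those that rose included the cytosolic heat shock genes Hsp90aa1 (3.63-fold) and Hspb1 (2.87-fold). The summed list was 18822, 18214 and 18481 CPM in WT_E and 11933, 12819.9 and 13308 CPM in KO_E.

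Cholesterol synthesis genes were higher in 22 of 33 cases (66.7%) and lower in 2 (6.06%), against 36.7% and 34.1% of all tested genes. At least 2-fold higher were 9 (27.3%), near the 25.9% of all tested genes. Hmgcs1, an early enzyme, rose 3.51-fold. Among those that fell, Acly, which supplies acetyl-CoA, fell 1.74-fold. Of 38 glutathione and antioxidant genes, 22 were higher (57.9%) and 4 lower (10.5%). The transferase gene Gsta4 rose from 8.8, 2.32 and 4.88 to 1403, 616 and 1028 CPM, while the peroxidase gene Gpx1 fell 6.35-fold. In the prostaglandin list 13 of 27 were higher (48.1%) and 7 lower (25.9%). The synthase gene Ptges, which makes prostaglandin E2, stood at 1.84, 3.49 and 1.12 CPM in WT_E and 284, 223 and 300.0 CPM in KO_E, and Hpgds, which makes prostaglandin D2, fell 14.1-fold. Cbr2, a carbonyl reductase, rose from 1.6, 3.93 and 13.3 to 940.5, 935 and 1084 CPM, a log2 fold change of 7.30 that was 8.48 without WT_E replicate 3.

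Matrix genes moved in both directions. Postn (periostin), a matrix protein that fibroblasts usually make, had 0 reads in WT_E and 712, 859.8 and 1051 CPM in KO_E, at least 78293-fold higher. In the list of laminins, integrins and glycoproteins 20 of 46 fell (43.5%) and 15 rose (32.6%), against 34.1% and 36.7% of all tested genes. The sum fell from 19689.9, 18660.2 and 14515 CPM to 5192, 6115 and 6180.0 CPM. Among its members called lower without overlap, Spp1 fell by the most CPM. Itga6 came next, with a mean difference of -884 CPM. The sum without Spp1 was not taken. Of 30 collagens, 18 rose and 3 fell. Col18a1, a basement membrane collagen, rose 10.2-fold, and Col16a1 fell 12.2-fold. Fibronectin (Fn1) stood at 571, 394 and 110.4 CPM in WT_E and 16.8, 17.4 and 29.5 CPM in KO_E. Among proteases, Adamts9 fell 62.1-fold, the matrilysin gene Mmp7 54.6-fold, and Adam8 rose 34.1-fold, with a log2 fold change of 5.09 that was 6.68 without WT_E replicate 1.

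Markers of cells outside the epithelium differed in level, many near 0 and some not. Of 18 stromal fibroblast markers, 13 were under 1 CPM in both groups. Col3a1, a defining collagen of fibroblasts, stood at 0.165, 0.775 and 1.22 CPM in WT_E and 0, 0 and 0.418 CPM in KO_E, and Col1a1 at 0.679, 0.75 and 0.811 against 0.103, 0.144 and 0.456 CPM. Neither was called, but both were called lower without KO_E replicate 3 and with the replicate block, and Col1a1 also by DESeq2 and with the 6 libraries alone (range of adjusted p 0.0319 to 0.415 and 0.00951 to 0.169). The sum over the markers, 121 to 584 CPM in WT_E and 736 to 1089.9 CPM in KO_E, was mostly Fn1 in the first and Postn in the second. Summed smooth muscle markers were 113 to 166 CPM in WT_E and 100.4 to 131 CPM in KO_E, most of it Smtn, and the muscle actin gene Acta2 stayed at 0.123, 0.339 and 0.699 against 0.757, 0.793 and 0.589 CPM. Among immune markers, C1qa and Cd3g had 0 reads in all 6 libraries, while Csf1r, the receptor for Csf1, stood at 19.6, 49.2 and 42 CPM in WT_E and 0.0516, 0.361 and 0.076 CPM in KO_E. Ptprc (CD45) stood at 7.65, 3.87 and 4.87 CPM in WT_E and 0.0172, 0 and 0.019 CPM in KO_E. Summed immune markers were 262 to 475 CPM in WT_E and 275 to 540.0 CPM in KO_E, mostly Cd68 and, in KO_E, S100a8, which squamous cells also make. Without KO_E replicate 2 the log2 fold change of Csf1r was -9.16 in place of -7.82. Csf1r and Csf1 were thus both higher in WT_E, and the part of immune cells in this was not tested. Summed endothelial markers were at most 21.9 CPM in each WT_E library and 32.8 to 37.3 CPM in KO_E, with Emcn and Cldn5 at 0 reads. Summed mesothelial markers were 1798 to 2529 CPM in WT_E, most of it from Aldh1a2, and 704 to 778 CPM in KO_E. The part of such cells in the results was not tested.

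Several genes that mark kidney tubule were far higher in WT_E. Of 20 such markers, 15 were tested, with 8 lower and 6 higher in KO_E, and their sum was 2340 to 3494 CPM in WT_E and 123 to 158 CPM in KO_E. Havcr1 (kidney injury molecule 1) stood at 1520.3, 1801 and 930.4 CPM in WT_E and 0.619, 0.839 and 0.209 CPM in KO_E. Kap, the kidney androgen-regulated protein, stood at 689, 1260.0 and 1067 against 3.04, 7.23 and 2.57 CPM, and its log2 fold change of -7.87 was -8.48 without KO_E replicate 2. Cdh16, a cadherin of kidney and Müllerian epithelium, fell 7.55-fold, and Slc12a1, a salt transporter, stood at 7.03, 5.25 and 4.94 CPM in WT_E with 2 reads over KO_E. Pax2 of this set also acts in the Müllerian duct. Slc22a6, Slc22a8 and Nphs1 had 0 reads in all 6 libraries. Going the other way, Hnf4a had 0 reads in WT_E and 6.2, 12.1 and 5.92 CPM in KO_E, at least 724-fold higher, and Ggt1 rose 26.4-fold. The uterine Hox genes Hoxa10 and Hoxa11 were at or near 0 in both groups. They are in the marker sets of both endometrial epithelium and stromal fibroblasts. The source of the kidney marker transcripts and the tissue of origin were not tested.

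Over all genes in the files, 17167, 16813 and 16834 had reads in the WT_E libraries and 18498, 18388 and 18200 in the KO_E libraries. Of the 16465 tested genes, 506 were called higher with 0 reads in every WT_E library. Another 57 were called lower with 0 reads in every KO_E library. Such genes passed the filter through other libraries, so these counts do not measure absence over all genes. Besides Krt14, Postn, Pitx1, Ccdc153 and Lrrc23, the first group was led by Cstdc5, a cystatin-like gene of squamous epithelium (1135, 411 and 331 CPM in KO_E), repetin (Rptn, 671, 151 and 221 CPM), the calmodulin-like gene Calm4 (186, 37.3 and 53 CPM), Sptssb, a subunit of the enzyme that starts sphingolipid synthesis (109, 28.9 and 74.4 CPM), and the antibacterial lectin Reg3g (36.4, 75.2 and 92.1 CPM). Cstdc5 has near-identical paralogs, so its level is uncertain. Rptn and Calm4 were again highest in KO_E replicate 1 and lowest in replicate 2, while Reg3g was lowest in replicate 1. The second group was led by Adam33, a metalloprotease-like membrane protein (29.5, 45.9 and 58 CPM in WT_E), the methyltransferase gene Inmt (4.48, 26.7 and 21.4 CPM), and the carbonic anhydrase gene Car4 (16, 4.93 and 4.44 CPM). Adam33 was at least 4928-fold lower, Inmt at least 1943-fold and Car4 at least 938-fold. WT_E replicate 1 was the highest library for Car4, and without it the fitted log2 fold change was -11.77 in place of -12.63, and that of Ano5 -9.17 in place of -10.61. Without KO_E replicate 1 those of Cstdc5, Rptn and Calm4 were 18.05, 17.06 and 15.02 in place of 18.84, 17.99 and 16.08. Obp2a, Pik3c2g, Ces2a, Klk1b24, Rgs7bp, Nr0b2 and Ano5 completed the 10, with mean WT_E levels under 10 CPM.

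The last comparison asks whether the genotype difference with estrogen was another than without it. Without estrogen, edgeR called 11811 genes (71.7%). Of the 11655 genes called with estrogen, 10686 (91.7%) were called with the same sign without it, 967 were called only with estrogen and 2 had opposite signs. The test of the difference itself, the interaction of genotype and estrogen, called 0 genes, and 726 (4.41%) had an unadjusted p below 0.05. DESeq2 called 22 genes for it and had 902 (5.48%) under an unadjusted 0.05. A gene called only with estrogen was therefore not shown to depend on the hormone. Of those 967, 67 had an unadjusted interaction p below 0.05.

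The 10 genes with the smallest interaction p in edgeR are given as values. DESeq2 called the interaction for 8 of them, all but Osr2 and Adrb1. Bcat1, an aminotransferase of branched-chain amino acids, stood at 1161, 1343 and 1436 CPM in WT_E and 20, 18.8 and 16 CPM in KO_E, against 1265, 1335 and 1109 CPM in WT_noE and 4.54, 6.31 and 8.64 CPM in KO_noE. The genotype difference was -6.17 with and -7.57 without estrogen on the log2 scale, and the interaction 1.40 ± 0.271 (SE; edgeR adjusted p = 0.871; DESeq2 adjusted p = 0.00848). Tspan12, a tetraspanin of WNT signalling, stood at 2.8, 3.29 and 4.2 CPM in WT_E and 1.48, 1.25 and 1.85 CPM in WT_noE, and at 46.9, 42.1 and 47.1 CPM in KO_E and 44.3, 41.8 and 45.9 CPM in KO_noE, with an interaction of -1.12 ± 0.22. Foxj1 stood at 337, 496 and 359 CPM in KO_noE, near its KO_E level, and in WT_noE at 0, 0.0202 and 0.0232 CPM. For Tspan12, as for Myb, Ocm, Osr2, Adrb1, Mvb12b and Foxj1, the genotype difference was smaller with estrogen, and every WT_E library lay above every WT_noE library. For Cys1, a cilium protein of kidney, KO_E had 0.138, 0.153 and 0.076 CPM and KO_noE 0.012, 0.0343 and 0 CPM, and Slc4a5, a bicarbonate transporter, was the exception, with a larger genotype difference with estrogen (-3.35 against -1.27). The 2 genes called in opposite directions, picked for that, were Gfap, an intermediate filament gene (-1.03 with and 0.86 without estrogen; interaction edgeR adjusted p = 0.974), and the RNA methyltransferase gene Henmt1 (-0.76 and 1.05; edgeR adjusted p = 0.871). All their levels were under 1 CPM, and the calls with estrogen were lost under 3 of 12 alternatives for Gfap and 10 of 12 for Henmt1.

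The lists gave close counts without estrogen. There 64 of the 65 axoneme genes and 49 of the 50 squamous genes were called higher and none lower, as against 63 and 49 with estrogen, and the estrogen-regulated list had 13 higher and 17 lower, as against 15 and 17 with it. The median log2 fold change of the estrogen-regulated list was -0.31 without and -0.24 with the hormone. Different libraries of each genotype stood behind each treatment.

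**Figure D5:**
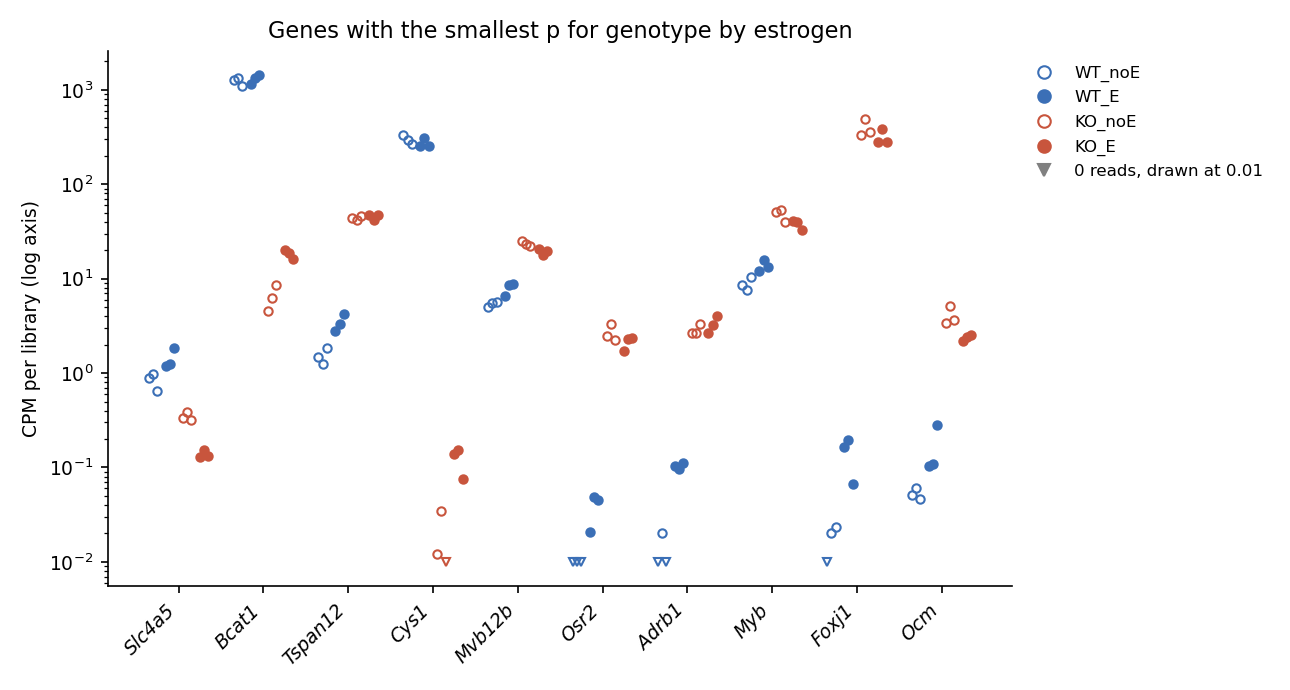
CPM of each of the 12 libraries (log axis) for the 10 genes with the smallest interaction p, wild type in blue and knockout in red, open symbols without and filled symbols with estrogen, and triangles at 0.01 for 0 reads. In every gene the wild type and knockout points do not overlap within a treatment, and for Tspan12, Myb, Ocm and Foxj1 the WT_E points sit above the WT_noE points.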

How the data were processed

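RNA from 12 organoid libraries was sequenced as paired ends of 150 bases, per the labels' protocols. The deposited values are raw counts of reads per gene, made with featureCounts, 2.0.0 per the file headers and 2.0.3 per the submitters' processing notes. Trim Galore 0.6.6, STAR 2.7.10b and build GRCm39 are named in the submitters' processing notes, which give no role for them. Per the file headers, reads were counted over exons without strand or pair options, so mates count singly, and reads of overlapping genes cannot be told apart by strand. Of 249 genes named, 58 overlap another gene of the files in the RefSeq gene table. Counts cover RefSeq genes as the authors' annotation names them.

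From the counts, genes passing edgeR's filter (minimum count 10, minimum total 15) were scaled by TMM and fitted with edgeR 4.0.16 (R 4.3.3) by the quasi-likelihood method with robust dispersion. All 12 libraries in 4 groups shared the estimate of spread. Tests were two-sided with Benjamini-Hochberg adjustment over the 16465 genes tested, and intervals are 95%. Folds given as such are ratios of mean CPM. A fold against a group with 0 reads was taken against 3 reads over that group, a limit that covers counting error only. With 2 reads, an exact counting interval is given. The edgeR test of KO_E against WT_E was checked on simulated counts with 200 changed genes, far fewer than were called here. DESeq2 and the interaction were not checked in this way.

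Members and gene lists were chosen with earlier results of these data known, and no set test was run. Some genes are not reported here. In each list the text could name up to 2 genes called higher and 2 lower with the largest difference in mean CPM among those whose groups did not overlap. It could further name members of the estrogen, steroid receptor and patterning lists, cell type markers, the 12 largest differences each way, 10 genes with 0 reads in a group each way, the 10 most alike, and the 10 with the smallest interaction p at 1 CPM or more. Others are said to be picked after their values were seen, and Tekt1, Deup1, Trp63, Krt13, Krt10, Lor and Sprr3 are markers or promoter examples.

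Alternatives were DESeq2 1.42.0, other scalings and filters, the 6 libraries alone, each library left out in turn and a replicate block. Promoter windows are from RefSeq on GRCm38.p6, not the build of the counts, and 12871 of the 16465 tested genes (78.2%) matched the table, so shares are set beside all genes of the table.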

Additional observations from a re-analysis of the deposited data

How the results depend on the processing

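Of the counts over all genes, those called (10067 to 11806 over the alternatives), called higher, called lower and at least 2-fold apart stayed within 1.5 times of their values under all 13 alternatives. Leaving out each of the 6 libraries in turn gave 10904 to 11362 genes called, and a log2 fold change of Esr1 between -4.10 and -3.96. The interaction of genotype and estrogen, 0 genes with edgeR, had 22 with DESeq2, and between 0 and 6 with a library left out, the 6 without WT_E replicate 1. With the 6 KO_E and WT_E libraries alone the interaction could not be fitted. The replicate block called 11640 genes. Same-numbered deviations correlated by 0.0265, 0.0531 and 0.0178, each the highest of its sample but under 0.1. Such low values cannot decide whether same-numbered libraries were paired, and the labels do not say. Scaling by library size alone turned the direction of 2 genes near 0, Nras to 0.18 and Ppp6r3 to 0.17 on the log2 scale.

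Of 248 genes named besides Esr1, 220 kept their direction and their side of the threshold under every alternative that tested them, and 28 did not. Among the list counts, library size alone gave 34 ribosomal protein genes higher in place of 6, and 48 respiratory chain genes higher and 6 lower in place of 25 and 17. Without KO_E replicate 2, 26 ribosomal genes were called higher. Collagens called lower were 3, against 5 with DESeq2 or the 6 libraries alone, 6 with the replicate block and 7 without KO_E replicate 3. Without KO_E replicate 1, 6 cell cycle genes were lower in place of 3. Without KO_E replicate 2, 5 genes of the EGF list were lower in place of 3, and without WT_E replicate 3, 5 immediate early genes were higher in place of 9. The causes of these changes were not tested. A count of 3 reads over a group corresponds to 0.0112 CPM in WT_E and 0.00902 CPM in KO_E, so absence is known only to that level.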

Other observations

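With the main scaling, ribosomal protein and respiratory chain genes were called less often than all tested genes. Of 80 ribosomal protein genes, 6 were called higher (7.5%) and 5 lower (6.25%), against 36.7% and 34.1% of all tested genes. Their median log2 fold change was 0.07. Their sum was 58745, 51437 and 59945 CPM in WT_E and 60913, 48323 and 67047 CPM in KO_E, so the groups overlapped. Rpl39 rose 1.35-fold and Rpl10 fell 1.41-fold. Of 89 nuclear genes of the respiratory chain, 25 were higher (28.1%) and 17 lower (19.1%). At least 2-fold higher were 3.37% of them and at least 2-fold lower 0%, against 25.9% and 12.7% of all tested genes. Ndufa4l2, a relative of a respiratory chain subunit that responds to low oxygen, rose 280.3-fold (a log2 fold change of 8.09, and 8.79 without WT_E replicate 1), and Atp5b, the beta subunit of ATP synthase, fell 1.26-fold, a call lost under library size alone. Both lists had more members called higher under scaling by library size alone, 34 ribosomal and 48 respiratory chain genes.

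In glycolysis and the response to low oxygen, 13 of 37 genes were higher and 12 lower, shares of 35.1% and 32.4% that lay near the 36.7% and 34.1% over all tested genes. Egln3, an oxygen-sensing hydroxylase, stood at 288, 279 and 216 CPM in WT_E and 782, 705 and 967 CPM in KO_E, while the glycolytic enzyme genes Gapdh and Eno1 fell 1.58-fold and 1.82-fold. Of 27 p53 targets, 12 rose (44.4%) and 8 fell (29.6%), against the same 36.7% and 34.1%. Pmaip1, which promotes cell death, rose 4.29-fold and Gadd45a, a DNA damage response gene, fell 5.69-fold. Of 31 histone genes, 15 were higher and 2 lower, with H2az1 2.1-fold higher, and the number of these calls depended on the filter, with 4 higher when at least 1 CPM in 3 libraries was required.

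In the hedgehog pathway, 6 of 13 genes were higher (46.2%) and 3 lower (23.1%), against 36.7% and 34.1% of all tested genes. The signal transducer gene Smo stood at 33.5, 35.9 and 38.5 CPM in WT_E and 69.5, 54.9 and 63.6 CPM in KO_E, and its partner Ptch1, the receptor, at 38, 39.5 and 34 against 42.4, 46.2 and 43.9 CPM, a call lost without WT_E replicate 3. The coreceptor gene Boc fell 2.08-fold. Of 24 immediate early genes, 9 were higher (37.5%) and 7 lower (29.2%), near the 36.7% and 34.1% over all tested genes. Btg2 rose 2.56-fold and Ier3 fell 4.24-fold.

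Markers of other epithelia were low. Of 23 markers of intestine, liver, pancreas, lung and mammary gland, 19 were under 1 CPM in both groups and 8 had 0 reads in all 6 libraries. The 7 tested included 5 higher and none lower in KO_E, and the sum was 16.4 to 22.8 CPM in WT_E and 112 to 233 CPM in KO_E. Their part in the result was not tested.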
